A study of Saccharomyces cerevisiae with 6 samples.

Results

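Positions 7 to 640 of the 25S ribosomal RNA (rRNA) of Saccharomyces cerevisiae form a long stretch at the 5' end of the molecule in which no modified nucleotide is annotated. The positions were chosen by their place in the RNA, which gave 634 of the 3396 positions of 25S rRNA and of the 5196 positions of 18S and 25S rRNA together. The authors' deposited annotation listed 75 modified 25S positions, of which 0 lay in the stretch, and the nearest ones were at 645, a methylated adenine base, and at 649. The stretch is non-coding rRNA from the gene RDN25-2. It lies on the minus strand of chromosome XII, where position 7 is nucleotide 464312, LSU-234 is 464085 and position 640 is 463679 (the files name no genome build). A position is written LSU-234 where it is named in the way of the labels, and otherwise by its number from the 25S 5' end.

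RiboMeth-seq measures ribose methylation by breaking RNA at its phosphodiester bonds and counting the fragment ends at each bond. A methyl group on the 2'-oxygen of the ribose blocks cleavage of the neighbouring bond, so that a methylated nucleotide shows few read ends beside its neighbours. In yeast rRNA, box C/D small nucleolar RNAs (snoRNAs) guide the methyltransferase to nearly all of these nucleotides, and box H/ACA snoRNAs guide most pseudouridines, in which the base is joined to the sugar by another bond. Most of these modifications lie in the functional centre of the ribosome. The 5' domain of 25S rRNA pairs with 5.8S rRNA and lies far from the peptidyl transferase centre. With no modification annotated there, the positions of this domain can serve to describe how evenly the assay reads an RNA.

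The study sequenced 6 samples, each of which was a group of its own. The knock-in strain YWD680, in which a plasmid encoded an artificial snoRNA directed at LSU-U2954, gave gel-purified large subunit (LSU) rRNA and whole-cell RNA. The knock-out strain YWD486 gave whole-cell RNA, and its plasmid held the snR67-snR53 region with a substitution that prevents methylation of LSU-G2619. The wild-type strain BY4741 gave chromatin-associated RNA, gel-purified small subunit (SSU) rRNA and gel-purified LSU rRNA. The labels do not state the chromosomal genotype of these strains at the snoRNA genes. The wild-type SSU library was made from 18S rRNA, and the values below come from the 25S reads that it also held. The knock-in whole-cell sample had a first and a second file, called run 1 and run 2 here, and their sum was used as 1 sample. The labels do not say whether these were sequencing runs of 1 library or separate libraries, so that the spread between them may hold more than sequencing. With 1 sample in each group, differences compare libraries and not conditions, no p-value was calculated, and the intervals given are 95% intervals for counting error alone.

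The 25S rRNA held 1197181 read ends in the knock-in LSU library, 734670 in knock-in whole-cell RNA, 214862 in the knock-out, 18489246 in chromatin-associated RNA, 70381 in the wild-type SSU sample and 1229170 in the wild-type LSU library. The engineered positions matched the labels: LSU-U2954 scored 0.924 and 0.894 in the knock-in LSU and whole-cell libraries, against 0.376 in the wild-type LSU library, and LSU-G2619 scored 0 in the knock-out, against 0.978 there. A protection score is 1 minus the ratio of a position's read ends to the weighted mean of 6 positions on each side, so that 0 means no fewer ends than the neighbours and 1 means none at all. Run 1 and run 2 stood apart from each other over the stretch, which is described where it bears on a value.

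LSU-234 was the most strongly protected position of the stretch in 4 of the 6 libraries and the only position protected in at least 3 of them. It is not in the authors' annotation and had been singled out with its score already known, so the values describe it and are not a test. In the knock-in LSU library 57 read ends fell on it, against a flanking mean of 752, a score of 0.924 (0.902 to 0.943). Knock-in whole-cell RNA had 45 ends against 304 around it, a score of 0.852 (0.801 to 0.892). The knock-out had 21 ends against 109, a score of 0.808 (0.705 to 0.882). All 3 libraries of the engineered strains thus showed a deep gap at this bond, least deep in the knock-out.

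Chromatin-associated RNA, the deepest library, had 562 ends at LSU-234 against a flanking mean of 7551, a score of 0.926 (0.919 to 0.932). The wild-type SSU library had 12 ends against 28.5, a score of 0.579 (0.255 to 0.785). The wild-type LSU library had 44 ends against 436, a score of 0.899 (0.864 to 0.927). The score of the wild-type SSU library was the lowest of the 6 and came from the fewest reads, and its whole interval lay below 0.8. A difference from the wild-type LSU library was counted as different only beyond 0.590, which is 2 SD of the difference between run 2 and run 1 over 2668 unlisted 25S positions outside the stretch. Since scores end at 1, no library could score higher than the wild-type LSU library by that much at LSU-234, so that the limit bears there only on lower scores. The differences were 0.03 (-0.01 to 0.06) in the knock-in LSU library, -0.05 (-0.11 to 0.01) in knock-in whole-cell RNA and -0.09 (-0.20 to -0.01) in the knock-out. They were 0.0264 (-0.00200 to 0.0616) in chromatin-associated RNA and -0.32 (-0.65 to -0.11) in the wild-type SSU library, whose interval reaches past the limit. All 5 comparisons share the wild-type LSU library.

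**Figure D1:**
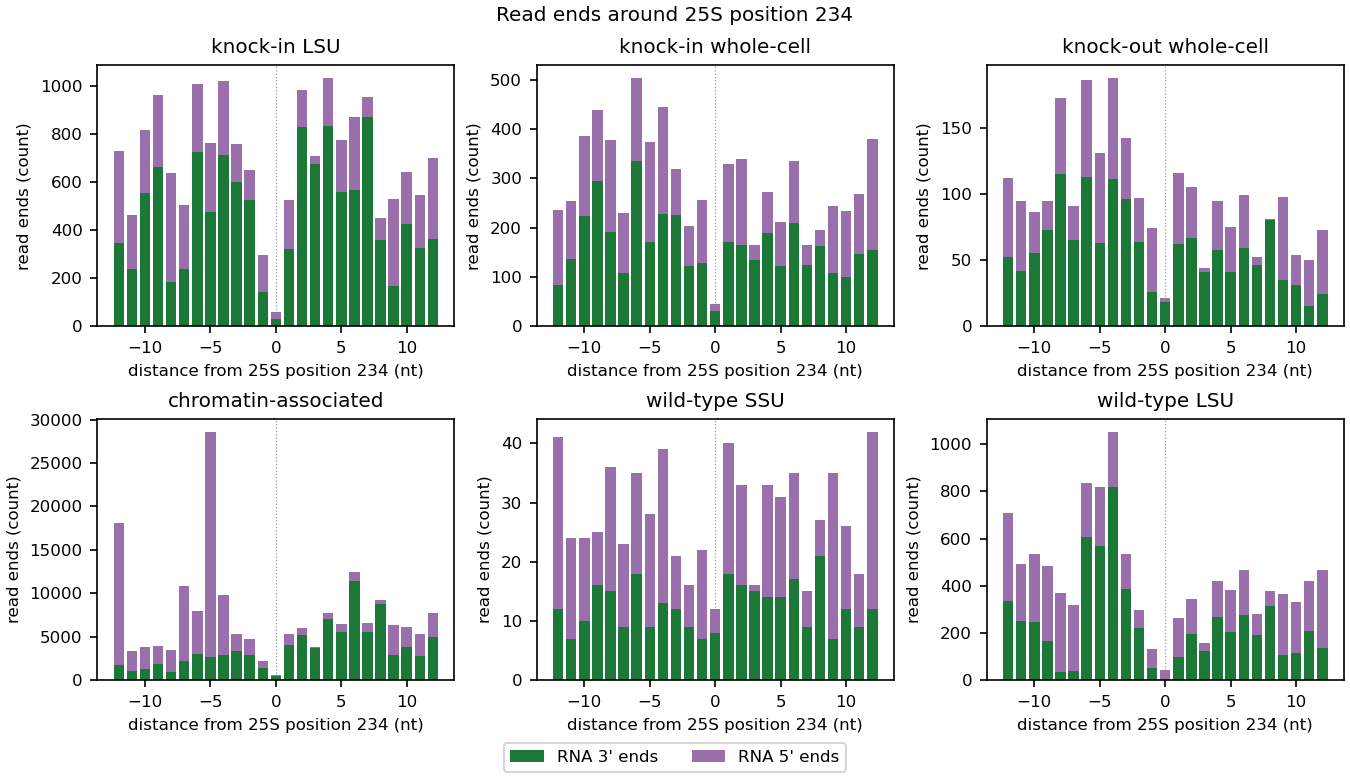
Read ends (count, linear axis with its own scale in each panel) at each position from 12 nucleotides before to 12 after LSU-234 in the 6 libraries, with RNA 3' ends in green and RNA 5' ends in purple stacked on them. The bar at distance 0 holds 57, 45, 21, 562, 12 and 44 ends from the knock-in LSU panel to the wild-type LSU panel and is the lowest bar in each panel.

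Both kinds of read end were scarce at LSU-234 in 5 libraries, though not to the same degree. The 3' ends numbered 30 in the knock-in LSU library, 30 in knock-in whole-cell RNA, 18 in the knock-out, 434 in chromatin-associated RNA, 8 in the wild-type SSU sample and 2 in the wild-type LSU library. The 5' ends numbered 27, 15, 3, 128, 4 and 42 in the same order of libraries. Wild-type LSU rRNA therefore had nearly all of its remaining ends as 5' ends, whereas 3' ends were the more frequent kind in the other 5 libraries. From 3' ends alone the score was 0.947 (0.924 to 0.964) in the knock-in LSU library, against 0.993 (0.975 to 0.999) in the wild-type LSU library. From 5' ends alone it was 0.859 (0.794 to 0.907) in the knock-in LSU library, against 0.717 (0.616 to 0.797) in the wild-type LSU library. The knock-out had 0.722 from 3' ends and 0.933 from 5' ends, and the chromatin library 0.895 and 0.963. Knock-in whole-cell RNA had 0.830 and 0.882. In the wild-type SSU library the score was 0.396 from 3' ends, with an interval of 0 to 0.744, so that scarcity of 3' ends was not detectable there, and 0.738 (0.316 to 0.929) from 5' ends.

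The runs of the knock-in whole-cell sample differed at this position. Run 2 had 45 ends and a score of 0.812 (0.747 to 0.863), and run 1 had 0 ends and a score of 1 (0.943 to 1), where the 3 ends that a count of 0 allows would give 0.954. Every read end at LSU-234 in the combined sample thus came from run 2. The nucleotide before it, position 233, was also low in some libraries. It had 0.417 of its flanking mean in the knock-in LSU library, 0.910 in knock-in whole-cell RNA, 0.695 in the knock-out, 0.296 in chromatin-associated RNA, 0.828 in the wild-type SSU sample and 0.295 in the wild-type LSU library. In run 2 the ratio was 1.17 and in run 1 it was 0.166, so that the low value at 233 belonged to run 1 alone within that sample. Position 235 reached 1.63 times its flanking mean in the wild-type SSU library and was lowest in the wild-type LSU library, at 0.715 times.

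The score at LSU-234 lay within the range of annotated ribose methylations. Of the 37 listed 2'-O-methylated positions of 25S rRNA, 23 scored lower than LSU-234 in the knock-in LSU library, 9 in knock-in whole-cell RNA, 6 in the knock-out, 35 in chromatin-associated RNA, 1 in the wild-type SSU sample and 5 in the wild-type LSU library. The median score of the listed positions was 0.838 in chromatin-associated RNA and 0.975 in the wild-type LSU library. LSU-234 therefore lay above most listed positions in chromatin-associated RNA and below most of them in mature wild-type rRNA. Score A, the authors' deposited statistic on another scale, was 0.813 at LSU-234 in the knock-in LSU library, 0.657 in knock-in whole-cell RNA, 0.564 in the knock-out, 0.574 in chromatin-associated RNA, 0.256 in the wild-type SSU sample and 0.690 in the wild-type LSU library. By Score A LSU-234 ranked first of the 634 positions in the knock-in LSU, chromatin-associated and wild-type LSU libraries, and 20th in the wild-type SSU library.

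Apart from LSU-234, protection was rare and reached 3 samples at no position. A position was counted as protected where it scored 0.8 or more and its flanking mean reached 10, a mean that all 634 positions reached in every library except the wild-type SSU library, where 568 had it. The knock-in LSU library had 3 protected positions in the stretch (162, 476 and LSU-234), where 1.12% of all 25S positions were protected, the listed modifications among them. Knock-in whole-cell RNA also had 3 (8, 209 and LSU-234), against 1.89% of all 25S positions. The knock-out had 4 (22, 76, 209 and LSU-234), against 1.63%, and chromatin-associated RNA had 2 (91 and LSU-234), against 2.07%. The wild-type SSU library had 1 (position 7), against 1.62%, and the wild-type LSU library had 1 (LSU-234), against 1.57%. Relative to unlisted positions elsewhere in 25S rRNA, the share in the stretch was higher in 2 libraries, the knock-in LSU library (0.473% against 0.187%) and the knock-out (0.631% against 0.523%). It was lower in the other 4, which were knock-in whole-cell RNA (0.473% against 0.935%), chromatin-associated RNA (0.315% against 1.42%), the wild-type SSU library (0.176% against 0.468%) and the wild-type LSU library (0.158% against 0.299%). Except in the wild-type SSU library, these shares of the stretch include LSU-234, which was chosen with its score known. Without it the knock-out keeps positions 22, 76 and 209, and 3 positions are 0.473% of the stretch, below 0.523%. The wild-type LSU library would keep none.

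LSU-234 was protected in 5 of 6 samples, position 209 in 2 of them and 7 further positions in 1 each, 9 positions in all. Over all 25S positions 1.21% were protected in at least 3 samples, and among 2675 unlisted positions outside the stretch there were 3. The single recurring position of the stretch is 0.158% of its positions, against 0.112% of those unlisted ones. That position is LSU-234, chosen with its score known, so the shares are not a like comparison. With a threshold of 0.9 the recurring count was 0, and with a threshold of 0.7 it was 8 (positions 8, 76, 113, 154, 209, 258, 476 and LSU-234). Leaving out any 1 library could not end the recurrence of LSU-234, which was protected in 5 of 6 samples where 3 were needed. In the wild-type LSU library the value inside the threshold was that of LSU-234, at 0.899. The nearest ones outside it were 0.796 at position 113, 0.792 at 293, 0.777 at 636, 0.773 at 634 and 0.763 at 619.

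**Figure D2:**
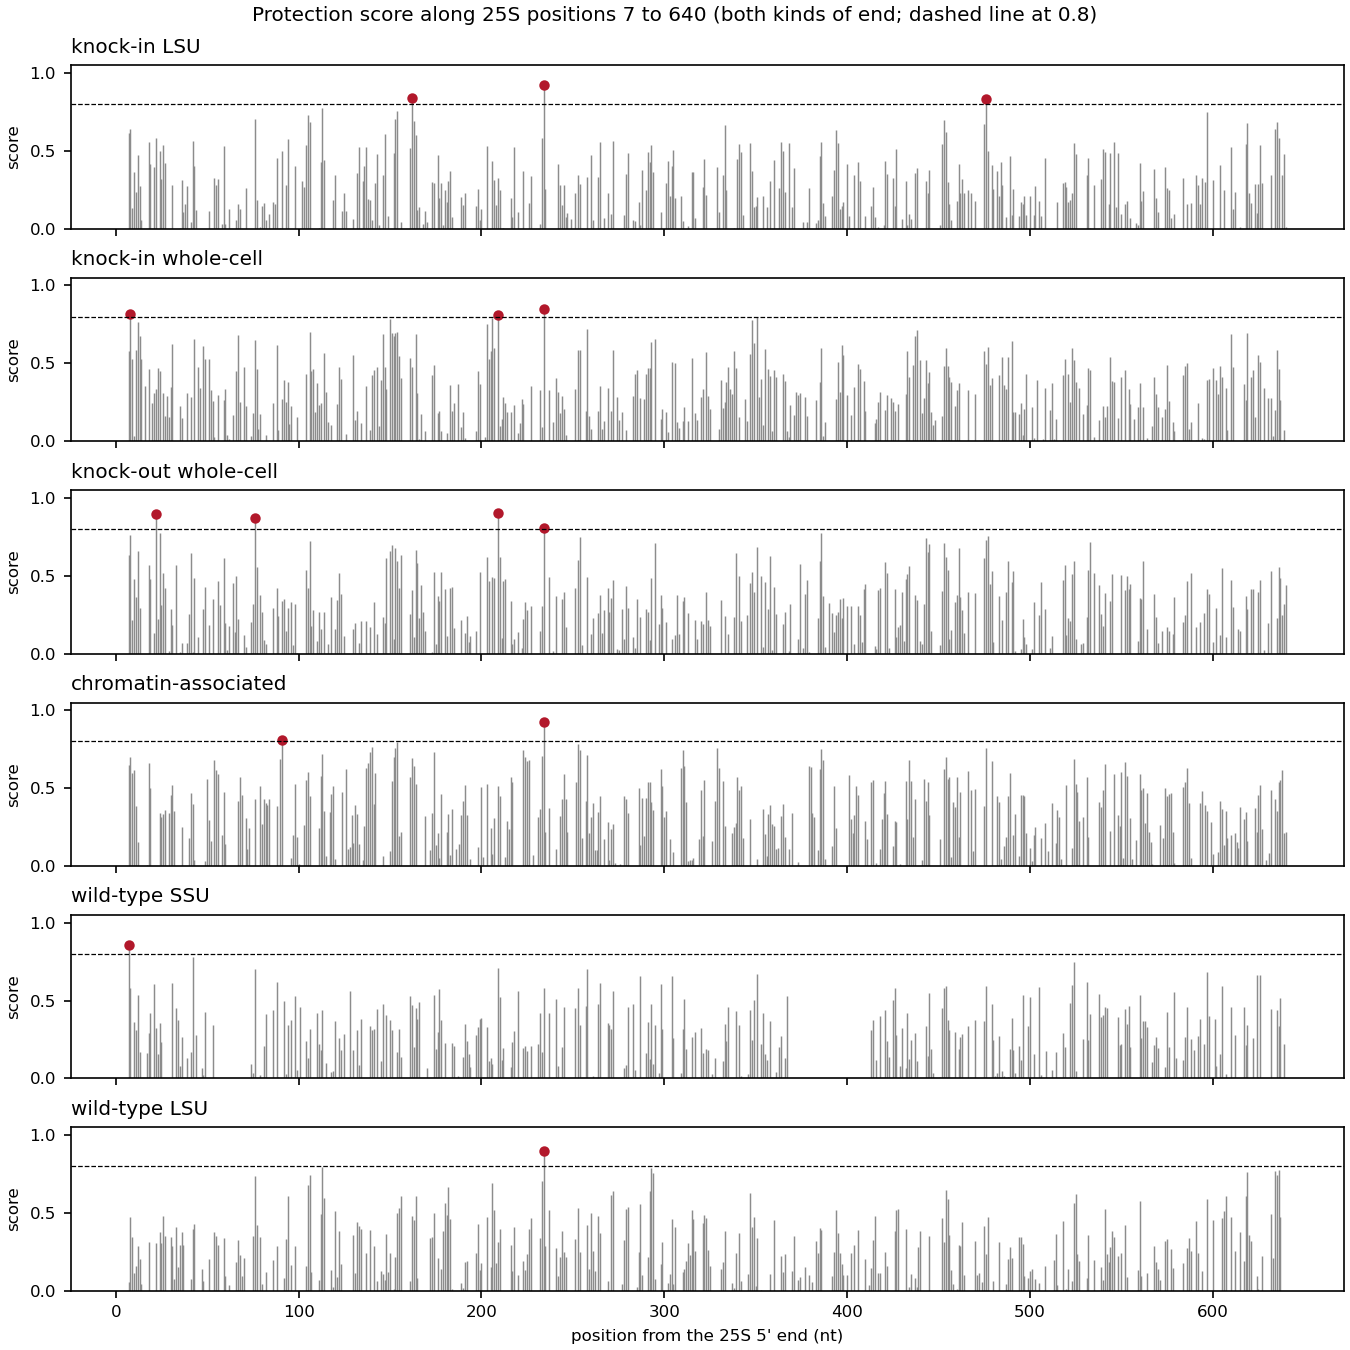
Protection score from both kinds of read end (vertical axis, 0 to 1) at each 25S position from 7 to 640 (horizontal axis, nucleotides from the 25S 5' end), 1 panel per library, with a dashed line at 0.8 and red points at protected positions. LSU-234 is marked in 5 panels, and gaps in the wild-type SSU panel are positions with a flanking mean under 10.

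Counting each kind of end apart gave longer lists of protected positions. By 3' ends, 7 positions were protected in at least 3 samples (113, 163, 164, 209, 457, 476 and LSU-234) of 618 with enough ends, where 2.73% of all 25S positions were. By 5' ends there were 8 (203, 237, 258, 385, 386, 453, 541 and LSU-234) of 634, where the share of all 25S positions was 2.44%. Both counts are shares of 1.13% and 1.26%, below those of 25S rRNA as a whole, which includes the listed modifications. They are close to the shares of unlisted positions outside the stretch, 1.31% by 3' ends and 1.47% by 5' ends. LSU-234 was the single position in both lists. Another position could lack both kinds of end in a single library: position 209 scored 0.823 by 3' ends and 0.958 by 5' ends in the knock-out. Position 164, also on the list by 3' ends, had a 5' score of 0.809 in the wild-type SSU library. Its 3' score there was only 0.165.

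Position 476 lacked 3' ends in almost every library. Its 3' ends numbered 40 in the knock-in LSU library, 26 in knock-in whole-cell RNA, 7 in the knock-out, 1762 in chromatin-associated RNA, 9 in the wild-type SSU sample and 7 in the wild-type LSU library. The scores from 3' ends were 0.904, 0.872, 0.946, 0.817, 0.788 and 0.941 in the same order. The 5' ends were not depleted: their score was 0 in all 6 libraries, with ratios to the flanking mean between 1.07 in chromatin-associated RNA and 2.13 in knock-in whole-cell RNA. The 30 listed pseudouridines of 25S rRNA showed an unequal pattern of the same direction, with a median score of 0.897 from 3' ends and 0.467 from 5' ends in the knock-in LSU library, and 0.921 and 0.493 in the wild-type LSU library. In chromatin-associated RNA they had 0.755 and 0.648. The 2 positions listed as m3U had medians of 0.891 and 0 in the knock-in LSU library, 0.691 and 0 in the wild-type LSU library and 0.287 and 0.563 in chromatin-associated RNA. Among unlisted positions outside the stretch, 35 of 2675 were also protected by 3' ends in at least 3 samples. Whether position 476 is modified was not tested. The listed 2'-O-methylated positions lacked both kinds of end, with median scores of 0.904 and 0.923 in the knock-in LSU library and 0.969 and 0.978 in the wild-type LSU library.

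Position 541 lacked 5' ends and kept most of its 3' ends, whereas positions 386 and 258 lacked 5' ends with 3' ends lower as well in several libraries. Position 541 had 5 ends of this kind in the knock-in LSU library, 5 in knock-in whole-cell RNA, 0 in the knock-out, 1 in chromatin-associated RNA, 0 in the wild-type SSU sample and 17 in the wild-type LSU library. Its 5' scores were 0.944, 0.892, 1, 0.999, 1 and 0.841 in that order, although the flanking mean was under 10 in the wild-type SSU library. The highest 3' score at this position was 0.43, in chromatin-associated RNA. Position 258 passed the threshold by 5' ends in all 6 libraries, with scores between 1 in the wild-type SSU library, which had 0 such ends, and 0.801 in the wild-type LSU library. A count of 0 allows up to 3 ends, so that each score of 1 is the upper end of what the reads allow. Position 386 passed it in 5, with 17 ends in the knock-in LSU library, 5 in knock-in whole-cell RNA, 0 in the knock-out, 59 in chromatin-associated RNA and 21 in the wild-type LSU library. By 3' ends, position 258 scored up to 0.599, in knock-in whole-cell RNA, and position 386 up to 0.536, in the knock-out. The neighbours 163 and 164 both passed 0.8 by 3' ends in the knock-in LSU library (0.919 and 0.818) and the wild-type LSU library (0.812 and 0.907), but position 163 scored 0.327 in knock-in whole-cell RNA, 0.368 in the knock-out and 0.389 in the wild-type SSU library.

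**Figure D3:**
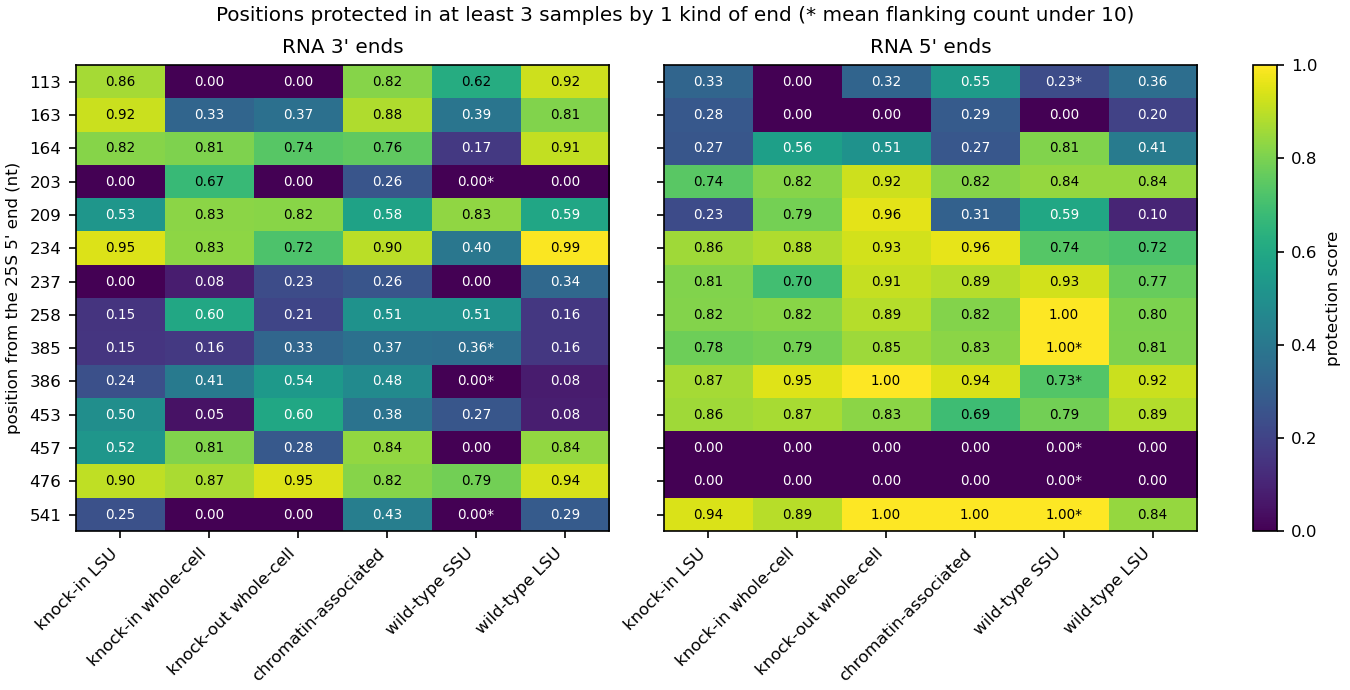
Protection score (colour and number) at the 14 positions protected in at least 3 samples by RNA 3' ends (left) or RNA 5' ends (right), with 1 column per library and an asterisk where the flanking mean of that kind of end was under 10. Position 476 has scores of 0.79 or more by 3' ends and 0 by 5' ends, whereas position 541 has 0.84 or more by 5' ends and at most 0.43 by 3' ends.

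Peaks of read ends were counted by the same measure. With at least 2 times the flanking mean counted as high, 6 positions were high in at least 3 samples (159, 160, 208, 296, 493 and 551), where 1.00% of all 25S positions were. This is 0.946% of the stretch, near the share of 25S rRNA as a whole. At position 159 the ratio was 2.88 in the knock-in LSU library, 2.44 in knock-in whole-cell RNA, 2.84 in the knock-out, 2.99 in chromatin-associated RNA, 1.62 in the wild-type SSU sample and 2.14 in the wild-type LSU library. By 3' ends alone it was high in all 6, with 2.52 in the wild-type SSU library as the lowest ratio. Position 160 beside it was high in 5 libraries and reached 1.67 in chromatin-associated RNA. Position 296 was also high in 5, with 1.22 in knock-in whole-cell RNA as the exception. Positions 493 and 551 were high in 3 libraries each, with 3.83 in chromatin-associated RNA and 2.57 in the wild-type SSU library as their highest ratios. By 3' ends alone 12 positions were high in at least 3 samples, where 1.93% of all 25S positions were, and by 5' ends alone 10 were, against 2.02%.

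Single libraries had their own peaks. The knock-in LSU library had 20 high positions, where 3.52% of all 25S positions were high. Knock-in whole-cell RNA had 28 (6.15%), the knock-out 27 (5.56%), chromatin-associated RNA 37 (5.67%), the wild-type SSU library 14 (2.03%) and the wild-type LSU library 16 (2.13%). Of the positions high in any library, 76 were so in 1 sample only. The highest counts of the stretch lay at different positions: 1482 ends at 250 in the knock-in LSU library, 2590 at 439 in knock-in whole-cell RNA, 1096 at 439 in the knock-out, 43815 at 121 in chromatin-associated RNA, 96 at 472 in the wild-type SSU library and 1235 at 391 in the wild-type LSU library. Both whole-cell libraries shared their highest position.

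Peaks at 208 and 439 were highest in the whole-cell libraries, and higher in run 2 than in run 1. Position 208 stood at 9.06 times its flanking mean in knock-in whole-cell RNA and 5.44 times in the knock-out. It was also high in chromatin-associated RNA, at 2.23 times, and had 0.848 times in the knock-in LSU library and 1.30 in the wild-type SSU library, against 0.823 in the wild-type LSU library. Within the knock-in sample the ratio was 11.1 in run 2 and 1.30 in run 1. At position 439 the peak was mostly of 5' ends, with 2078 in knock-in whole-cell RNA and 1044 in the knock-out, against 172 in the wild-type LSU library. Its ratio by 5' ends was 2.01 in the knock-in LSU library, 12.9 in knock-in whole-cell RNA, 6.15 in the knock-out, 1.84 in chromatin-associated RNA and 1.75 in the wild-type SSU library, against 1.32 in the wild-type LSU library. Of the 2078 ends in knock-in whole-cell RNA, run 2 held 2063 and run 1 held 15. Position 209, next to the first peak, had 30 3' ends and 35 5' ends in knock-in whole-cell RNA and 6 and 2 in the knock-out, against 89 and 252 in the wild-type LSU library. Position 209 was counted as protected in these 2 whole-cell libraries, where position 208 lies among its neighbours.

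Without annotated modifications, read ends were still far from even. The coefficient of variation (CV, the SD over positions divided by the mean) of read ends in the stretch was 0.639 in the knock-in LSU library, 0.877 in knock-in whole-cell RNA, 1.00 in the knock-out, 1.02 in chromatin-associated RNA, 0.655 in the wild-type SSU sample and 0.553 in the wild-type LSU library. Counting error alone would give 0.0539, 0.0676, 0.121, 0.0139, 0.222 and 0.0506 in the same order. The unevenness was thus larger than counting error in every library, least so in the wild-type SSU library, and chromatin-associated RNA, with by far the most reads, was the most uneven. Unlisted positions elsewhere in 25S rRNA gave CVs of 0.751, 1.19, 0.776, 0.964, 0.539 and 0.549. The stretch was the more uneven part in 4 of 6 libraries, though hardly in the wild-type LSU library, by 3' ends in 4 libraries and by 5' ends in 3. The largest excess was in the knock-out, at 1.00 against 0.776. Within positions 401 to 500, which hold its peak at 439, the knock-out had a CV of 1.31. It was at most 0.601 in positions 7 to 100, 101 to 200, 201 to 300, 301 to 400 and 501 to 640. Over the whole stretch run 2 had a CV of 1.25 and run 1 had 0.706.

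Each kind of end alone was more uneven than both together. For 3' ends the CV in the stretch was highest in chromatin-associated RNA, at 1.38, and lowest in the wild-type LSU library, at 0.813. For 5' ends it was highest in the knock-out, at 1.53, and lowest in the wild-type LSU library, at 0.709. Locally the variation was smaller. Between 76.8% of positions, in chromatin-associated RNA, and 90.1%, in the wild-type LSU library, lay within 0.5 to 2 times their flanking mean. The fifth percentile of this ratio was 0.336 in chromatin-associated RNA and 0.455 in the wild-type LSU library. Typical positions thus scored near 0, with median scores in the stretch between 0.148, in chromatin-associated RNA, and 0.0565, in the wild-type SSU library.

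**Figure D4:**
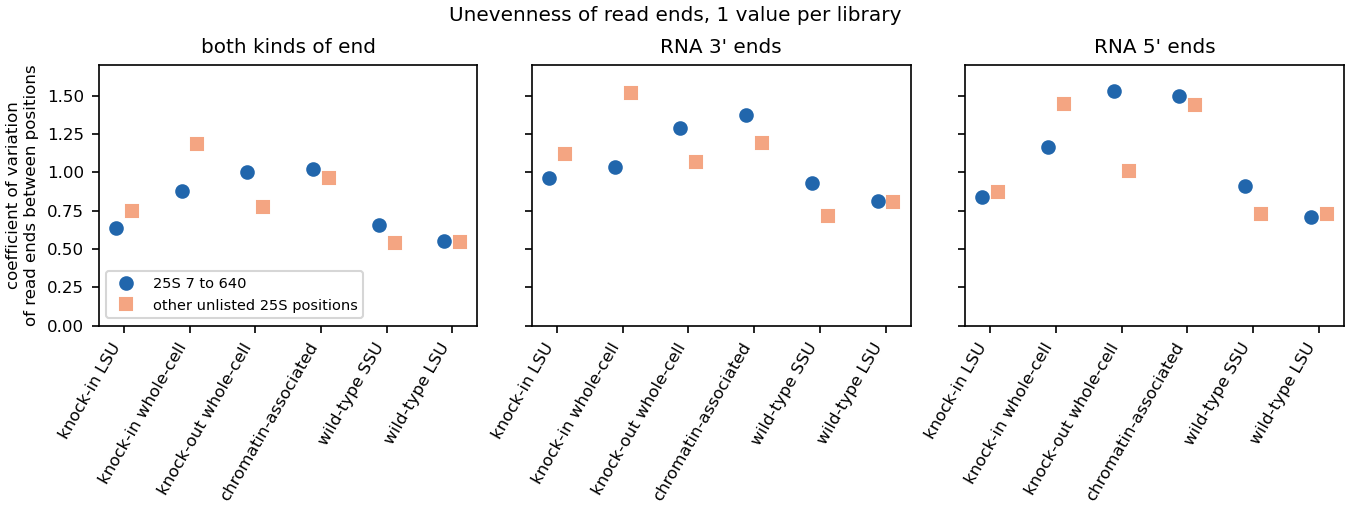
Coefficient of variation of read ends between positions (vertical axis, from 0) in each of the 6 libraries, for 25S positions 7 to 640 (circles) and for the other unlisted 25S positions (squares), by both kinds of end, RNA 3' ends and RNA 5' ends. Each symbol is 1 library without an error bar, and by both kinds of end the circles lie between 1.02 in chromatin-associated RNA and 0.553 in the wild-type LSU library.

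The stretch took up 18.7% of the 25S positions and a similar part of the reads. Its share of 25S read ends was 18.3% in the knock-in LSU library, 18.9% in knock-in whole-cell RNA, 20.2% in the knock-out, 17.7% in chromatin-associated RNA, 18.3% in the wild-type SSU sample and 20.2% in the wild-type LSU library. Run 2 had 17.8% and run 1 had 21.0%, a wider gap than that between the samples. Along the stretch, positions 201 to 300 were above the mean of the other unlisted positions in all 6 libraries, between 1.22 times in the knock-out and 1.58 times in the knock-in LSU library. From 301 to 400 the libraries parted, with 0.670 times in the knock-in LSU library, 1.09 in knock-in whole-cell RNA, 0.618 in the knock-out, 0.761 in chromatin-associated RNA and 0.616 in the wild-type SSU library, against 1.47 in the wild-type LSU library. Run 1, at 1.41 times, was like the wild-type LSU library there, and run 2 had 0.932.

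Libraries ranked the positions of the stretch differently. Over the positions with a flanking mean of at least 10, Spearman's rho of the ratio to the flanks ran from 0.101 (knock-in whole-cell and chromatin-associated RNA) to 0.681 (knock-in whole-cell RNA and the knock-out), with a median of 0.438 over 15 pairs of samples. These correlations are across positions of 1 RNA, which share sequence and flanks and are not independent replicates. The knock-in LSU and wild-type LSU libraries, both of gel-purified rRNA, had 0.623. Run 2 and run 1 had 0.254, lower than run 2 with the knock-out, at 0.654, and than run 1 with the wild-type LSU library, at 0.493. Within a library the ratio by 3' ends and the ratio by 5' ends were weakly related, from 0.094 in the knock-in LSU library to 0.331 in knock-in whole-cell RNA.

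The share of read ends that were 3' ends changed gradually along the stretch. In the knock-in LSU library the middle 80% of positions ran from 13.3% to 83.3% of 3' ends, and in the wild-type LSU library from 14.5% to 78.6%. Positions 1 nucleotide apart were alike, with correlations between 0.850 in chromatin-associated RNA and 0.648 in the wild-type SSU library. At 20 nucleotides the correlation lay between -0.27 in chromatin-associated RNA and 0.12 in the wild-type LSU library. Run 1 resembled the wild-type LSU library in this share (0.609) more than run 2 (0.126). Run 2 resembled the knock-out (0.595), the knock-in LSU library (0.586) and chromatin-associated RNA (0.569) more than the wild-type LSU library (0.255).

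**Figure D5:**
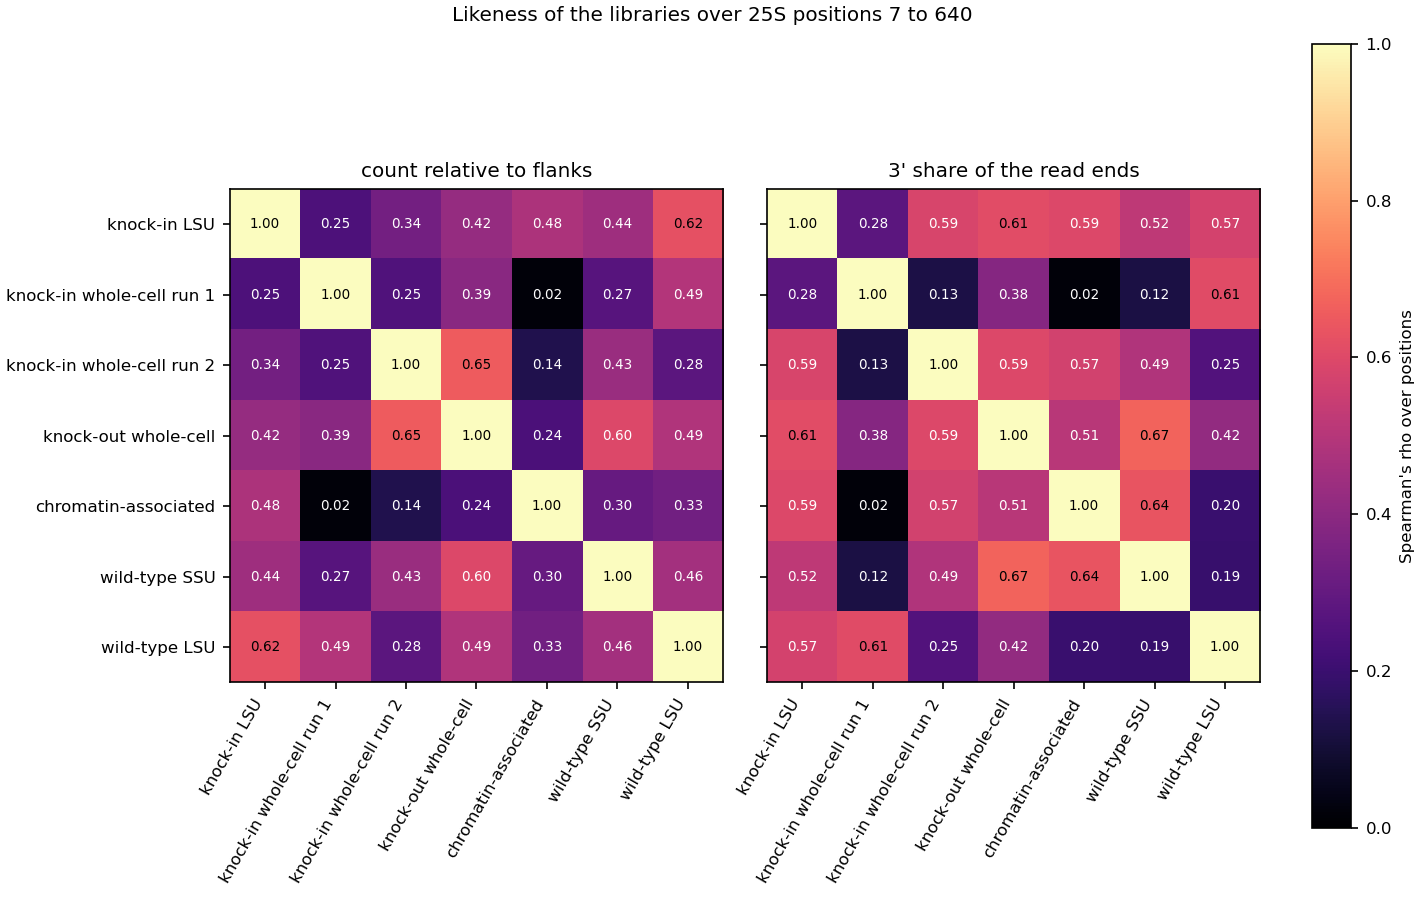
Spearman's rho over 25S positions 7 to 640 between libraries (colour and number), with the 2 runs of the knock-in whole-cell sample apart, for the ratio of read ends to their flanks (left) and for the share of 3' ends (right). The runs have 0.25 and 0.13 with each other, and run 1 has 0.61 with the wild-type LSU library in the share of 3' ends.

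Differences from the wild-type LSU library were few. With negative scores kept in place of 0, the limit was again taken from the runs. Then 0 positions differed in the knock-in LSU library, 7 in knock-in whole-cell RNA, 3 in the knock-out, 0 in chromatin-associated RNA and 0 in the wild-type SSU library. Negative scores have no floor, so that limit is wider, while scores still end at 1. At unlisted positions outside the stretch the 95th percentile of the ratio was 2.84 in run 2 and 1.88 in run 1. The lower counts therefore do not show that the libraries differed less. Against the limit of 0.590, the knock-in LSU library differed at 2 of 634 positions, where 0.355% of all 25S positions differed. Position 476 was higher, with a score of 0.832 against 0.238 in the wild-type LSU library, a difference of 0.59 (0.48 to 0.72). Neither kind of end alone scored higher there: 3' ends gave 0.904 against 0.941, and 5' ends gave 0 in both libraries. Of the flanking mean at position 476, 3' ends made up 417 of 447 in the knock-in LSU library and 119 of 253 in the wild-type LSU library. Position 607 was lower, with 0 against 0.607, a difference of -0.61 (-0.66 to -0.55). These were the 1 higher position, against 0.0887% of all 25S positions, and the 1 lower position, against 0.266%. Knock-in whole-cell RNA differed at 10 positions, where 2.36% of all 25S positions differed. Of these 5 were higher (1.80% of all 25S positions) and 5 were lower (0.561%). Position 151 differed by 0.70 (0.61 to 0.77), with 0.697 against 0 in the wild-type LSU library, and positions 438 and 152 were next, with 0.716 against 0.0232 and 0.675 against 0.0107. Position 113 differed by -0.80 (-0.84 to -0.74), with 0 against 0.796, and positions 294 and 105 were next, with 0 against 0.755 and 0 against 0.679. Run 2 alone differed from the wild-type LSU library at 37 positions and run 1 alone at 6.

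The knock-out differed at 11 positions, where 1.65% of all 25S positions differed. Of these 7 were higher (1.03% of all 25S positions) and 4 were lower (0.621%). Position 443 was higher by 0.74 (0.66 to 0.80), with 0.742 against 0 in the wild-type LSU library, followed by positions 533 and 151, with 0.714 and 0.699 against 0. Position 113 was lower, with 0 against 0.796, followed by positions 634 and 294, with 0 against 0.773 and 0 against 0.755. A score of 0 hides how far a position lies above its flanks: position 113 had 634 ends against 174 in knock-in whole-cell RNA and 111 against 66.1 in the knock-out. Chromatin-associated RNA differed at 21 positions, 3.31% of the stretch, where 3.22% of all 25S positions differed. The higher ones were 2.60% of all 25S positions and the lower ones 0.621%. In the stretch 18 were higher, led by position 91 with 0.808 against 0 in the wild-type LSU library (a difference of 0.81, 0.77 to 0.82), position 140 with 0.762 against 0 and position 329 with 0.759 against 0. The 3 lower ones were position 206, with 0.0758 against 0.691 (-0.62, -0.67 to -0.55), position 94, with 0 against 0.611, and position 619, with 0.159 against 0.763. The wild-type SSU library differed at 8 of 568 positions, where 1.31% of all 25S positions differed. Of these 3 were higher and 5 were lower, each against 0.655% of all 25S positions. Position 7 was higher there, with 0.858 against 0.0554 in the wild-type LSU library, a difference of 0.80 (0.50 to 0.93), but rested on 3 read ends, and positions 626 and 21 rested on 4 and 6. Position 634 was lower, with 0 against 0.773 (-0.77, -0.82 to -0.60), followed by positions 182 and 294.

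In each of the 5 comparisons the share of differing positions in the stretch was close to that of 25S rRNA or below it. Run 2 differed from run 1 of the same sample at 42 positions, where 6.72% of all 25S positions did, more than any sample differed from the wild-type LSU library. Of these 24 were higher in run 2 (4.41% of all 25S positions) and 18 were lower (2.31%). The limit comes from these runs, and at 3 SD no position of the stretch differed in any of the 5 comparisons.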

How the data were processed

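Yeast RNA of 6 samples was fragmented to 20 to 40 nucleotides, joined to RNA adapters by a kinase-dead tRNA ligase and read by Ion semiconductor sequencing, per the labels' protocols. The submitters' processing notes name cutadapt 1.2 and Bowtie2 2.1.0. They give no mapping options, treatment of repeated rDNA copies or genome build. The 8 sample files hold 6 tracks each: deposited counts of RNA 3' ends, of 5' ends and of both, all raw, and 3 scores of the authors' own, per the file headers, of which Score A was used. The count of both was the sum of the other tracks at all 3396 positions of 25S rRNA in each file. The knock-in LSU file headers state their own data handling, which refused reads with errors within 3 nucleotides of the RNA end, and the other files do not say whether they were so made.

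Positions were taken as 464318 minus the 0-based start of the files. The score used 6 flanking positions a side with weights from 1 to 0.5 in steps of 0.1, and negative scores were set to 0. Its 95% interval used Clopper-Pearson limits of the count against the effective flanking count, and differences used the MOVER method. Shares have Wilson intervals. These cover counting error only, since reads that carry no molecular identifiers cannot be taken as independent molecules. Protected meant a score of at least 0.8, high a ratio of at least 2, each with a flanking mean of at least 10, and recurring meant in at least 3 of 6 samples. Profile correlations used log2 of the count plus 0.5 over the flanking mean plus 0.5. The named positions were LSU-234, every recurring protected position, up to 10 recurring high positions, the 5 unlisted positions nearest the threshold on each side in the wild-type LSU library, and the 3 largest differences in each direction. Positions 208, 209, 439 and 233 and the highest counts were named after their values were seen. The members and lists were chosen with earlier results of these data known. The calculations were checked on simulated data and ran in Python 3.11.15 with numpy 2.4.6, scipy 1.17.1 and pandas 2.3.3. A description of the stretch by base was planned and not run.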

Additional observations from a re-analysis of the deposited data

How the results depend on the processing

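No paired analysis was possible because each group had 1 sample. Of 229 alternative values, 140 stayed within the run-to-run spread, the counting interval or 1.5 times the count, and 89 moved. The run-to-run spread was wide, with an SD of 0.386 for the CV and of 2.27 percentage points for the share. A CV of 0.813 by 3' ends in place of 0.553 in the wild-type LSU library thus counted as not moved. LSU-234 recurred in 18 of 19 settings and dropped out at a threshold of 0.9. Many of the 19 could not have removed it, so the count does not measure how firm its recurrence is. With 5 samples protected and 3 needed, leaving out 1 library or using 1 run could not end it. A lower threshold, no flanking minimum, positions 40 to 640 and flanks without position 2 could not do so either. In each setting that left out 1 library the recurring count was 1. Recurring high positions numbered 4 to 5 when 1 library was left out. The median of the flanks and the flanks without position 2 were chosen after seeing the data. Depth limits the wild-type SSU library most.

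From 3' ends alone the score at LSU-234 was 0.947 in the knock-in LSU, 0.895 in the chromatin and 0.993 in the wild-type LSU library. Its 5' ends alone gave 0.859 in the knock-in LSU, 0.933 in the knock-out, 0.963 in the chromatin and 0.717 in the wild-type LSU library. Run 1 gave 1. With 2 flanking positions it was 0.877 in the chromatin and 0.830 in the wild-type LSU library. Equal weights gave 0.933 and the flanking median 0.909 for chromatin-associated RNA. By 5' ends the CV was 1.53 for the knock-out and 1.502 for chromatin-associated RNA.

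Protected positions, in the order knock-in LSU, knock-in whole-cell, knock-out, chromatin, wild-type SSU and wild-type LSU, numbered 16, 20, 8, 16, 4 and 28 by 3' ends and 6, 12, 21, 18, 6 and 12 by 5' ends. Of 634 positions, the wild-type SSU library had enough ends at 262 by 3' ends and 268 by 5' ends. Each other library had enough at 598 or more. By 5' ends the share in the stretch was below that of unlisted positions elsewhere in every library. By 3' ends it was above that share in knock-in whole-cell RNA and the wild-type SSU library, and below it in the others. Counts at the other settings below are given without such a comparison and describe the settings alone. At a threshold of 0.7 protected positions numbered 9, 12, 16, 20, 6 and 11 in the same order. At 0.9 they numbered 1, 0, 1, 1, 0 and 0. Run 2 had 12 and run 1 had 8. With 2 flanking positions the knock-in LSU library had 1, knock-in whole-cell RNA 9 and the wild-type SSU library 0. With equal weights the wild-type LSU library had 2. In the wild-type SSU library the count was 4 with no flanking minimum, and 0 with a minimum of 30, over positions 40 to 640 or without position 2 in the flanks. With the flanking median it was 1 in knock-in whole-cell RNA, 1 in the chromatin, 0 in the wild-type SSU and 2 in the wild-type LSU library. Recurring protected positions numbered 7 by 3' ends, 8 by 5' ends, 8 at 0.7 and 0 at 0.9. Recurring high positions numbered 12 by 3' ends, 10 by 5' ends, 11 with equal weights, 21 with the flanking median, 64 at a ratio of 1.5 and 0 at a ratio of 3.

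Differences from the wild-type LSU library by 3' ends numbered 7 in the knock-in LSU library, 16 in knock-in whole-cell RNA, 22 in the knock-out and 14 in the wild-type SSU library. By 5' ends they numbered 0, 0, 1, 7 and 1 in the knock-in LSU, knock-in whole-cell, knock-out, chromatin and wild-type SSU libraries. Run 2 gave 37 and run 1 gave 6. With 2 flanking positions there were 7 in the knock-in LSU library and 21 in knock-in whole-cell RNA, and with equal weights 1 in the knock-in LSU library. A flanking minimum of 30 gave 0 in the wild-type SSU library. A limit of 3 SD gave 0 in all 5 comparisons, though scores between 0 and 1 could hardly differ by that much. With negative scores kept, and so a wider limit, there were 0 in the knock-in LSU library, 3 in the knock-out, 0 in the chromatin and 0 in the wild-type SSU library. Against the knock-out, the knock-in LSU library had 10, knock-in whole-cell RNA 0 and the wild-type SSU library 5. Apart from settings that use fewer reads or positions, the cause was not tested.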

Other observations

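Near the start of 25S rRNA the kinds of end were unequal. Fragments of at least 20 nucleotides cannot end within positions 7 to 19 if they begin at the mature 5' end. In the knock-in LSU library 4 of the ends there were 3' ends and 1546 were 5' ends, and the knock-in whole-cell and knock-out libraries had 12 and 2556, and 5 and 754. Chromatin-associated RNA had 4230 and 28302, so that 13.0% (Wilson interval 12.6% to 13.4%) were 3' ends. The wild-type SSU library had 9 and 152, or 5.59% (2.97% to 10.3%), and the wild-type LSU library had 13 and 2865, or 0.452% (0.264% to 0.771%). The share of 3' ends was thus highest in chromatin-associated RNA. The single-sample design gives no replicate for this difference.

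Read ends piled up at position 2, just before the stretch. It held 2212 ends in the knock-in LSU library, 2570 in knock-in whole-cell RNA, 783 in the knock-out, 26040 in chromatin-associated RNA, 210 in the wild-type SSU sample and 1335 in the wild-type LSU library. Medians over positions 3 to 19 were 79, 110, 35, 1587, 9 and 180 in that order. Position 2 lies among the left neighbours of positions 7 and 8. Without it, the score of position 8 in knock-in whole-cell RNA was 0.559 in place of 0.814, and that of position 7 in the wild-type SSU library was 0.610 in place of 0.858, so that both fell below 0.8.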
